A study of Mus musculus with 6 samples.

Results

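Mature microRNAs were compared between mouse embryoid bodies that carried human BRCA1 with the missense change R1699Q (RQ) and embryoid bodies that carried wild-type human BRCA1 (WT). The comparison rests on 4 arrays, 2 RQ and 2 WT, out of the 6 of the series. The other 2 held embryoid bodies with BRCA1 M1652I (MI), shared the fit and are given beside RQ where they bear on it. All groups came from embryonic stem cells of the strain 129S7/SvEv Brd-Hprt b-m2, were freed of feeder cells on gelatin and were collected on day 7 of culture as aggregates. The labels number the 2 samples of a group as biological replicates, without saying whether they were separate cultures or clones, so the p-values below cover no more than the variation among these samples, part or all of which may be technical.

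MicroRNAs are short RNAs cut from hairpin precursors that guide Argonaute proteins to target messenger RNAs, mainly through the seed, bases 2 to 8 from the 5′ end. MicroRNAs with one seed form a family and share many targets, and neighbouring hairpins are often cut from one transcript. BRCA1 is a tumour suppressor with a role in DNA repair by homologous recombination and in transcription; R1699Q lies in its C-terminal BRCT repeats, which bind phosphorylated partner proteins, and BRCA1 is known to repress miR-155. An embryoid body is an aggregate in which stem cells leave pluripotency and start to form tissues of the germ layers. The miR-290 and miR-302 clusters mark pluripotent and early differentiating cells, and let-7 rises as cells differentiate.

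Each array carried 334 mouse microRNA probes in 4 spots each, and 294 were tested because they stood well above background in either dye on at least 2 of the 6 arrays. Cy3 carried the RNA of the group itself, and was well above background for 255 microRNAs on each WT array and 241 on each RQ array. Cy5 carried, by the labels, RNA of wild-type embryoid bodies on every array, with no dye swap. The Cy5 signal goes against that label, since miR-302d, at a net Cy3 signal of 1628 and 1290 on the WT arrays, was not above background in Cy5 on any array. A Cy3 over Cy5 ratio is therefore compared between groups only. Negative control spots had a net Cy3 signal of 59.4 and 43.8 on the WT arrays and 93.0 and 102.8 on the RQ arrays. Over the tested microRNAs the net Cy3 signal of RQ was at a median of 1.35 times that of WT, and the net Cy5 signal at 0.834 times. On the slide, row 1 held both WT arrays and row 2 the arrays of both mutants, so slide row and the presence of a BRCA1 mutation cannot be told apart. The RQ arrays lay in slide columns 3 and 4, and the WT and MI arrays in columns 1 and 2. Slide column and R1699Q thus cannot be told apart, against WT or against MI. In whole aggregates, fewer cells of a type and less RNA per cell cannot be told apart either.

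The sequences below are those of the microRNAs on which the comparison turns: those called in the same direction under all 5 ways of scaling the arrays, for which a mature sequence was at hand, and 5 relatives or contrasting cases. They are RefSeq mature sequences (GRCm38.p6), 5′ to 3′, with the seed in capitals. The higher microRNAs come first.
miR-652: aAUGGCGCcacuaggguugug
miR-449: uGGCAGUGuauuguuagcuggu
miR-155: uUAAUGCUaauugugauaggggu
miR-361: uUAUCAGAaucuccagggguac
The lower microRNAs follow, of which miR-27a and miR-27b share a seed.
miR-27a: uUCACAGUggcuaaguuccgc
miR-27b: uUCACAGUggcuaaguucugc
miR-365: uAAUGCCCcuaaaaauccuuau
miR-210: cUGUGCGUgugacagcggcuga
miR-148b: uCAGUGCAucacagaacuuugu
miR-499: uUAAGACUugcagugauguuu
miR-299: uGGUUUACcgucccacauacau
miR-302d: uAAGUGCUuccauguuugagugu
The last 5 are miR-294, which shares the seed of miR-302d, the pair miR-181a and miR-181b, and let-7b and let-7c, whose change depended on the scaling.
miR-294: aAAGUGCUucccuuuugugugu
miR-181a: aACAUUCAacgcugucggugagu
miR-181b: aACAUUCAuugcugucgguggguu
let-7b: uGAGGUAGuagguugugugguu
let-7c: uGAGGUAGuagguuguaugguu
Of the 294 tested microRNAs, 242 had a mature sequence, with 183 different seeds between them. miR-27a and miR-27b differ at 1 of 21 bases and let-7b and let-7c at 1 of 22, so the probes of each pair may share signal.

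In RQ embryoid bodies a small group of microRNAs of different families rose, led by miR-652, miR-449 and miR-155, and another fell, led by miR-27b, miR-467* and miR-466. With the ratios normalised by loess within each array, 63 of 294 microRNAs (21.4%) were called in RQ minus WT at an adjusted p under 0.05 (limma), and 110 had an unadjusted p under that value. Of these, 22 were higher (7.48% of those tested) and 41 lower (13.9%). Only 15 of them (5.10%) were also called, in the same direction, with each of 4 other scalings: loess fitted on bright spots, centring of each array on its median, the Cy3 signal alone and the scanner's processed signals. These 15 were 5 rises, miR-155, miR-652, miR-449, miR-361 and miR-151, and 10 falls, miR-27b, miR-467*, miR-466, miR-210, miR-365, miR-27a, miR-148b, miR-499, miR-299 and miR-302d. Without RQ replicate 1 the calls numbered 5, with 2 of the 5 rises (miR-155 and miR-652) and 1 of the 10 falls (miR-466) among them, and without RQ replicate 2 they numbered 40, with 5 of the rises and 8 of the falls.

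miR-652, encoded within the span of Tmem164 (chrX:142739060-142739080, plus strand), showed the largest rise. Its log2 ratio was -0.997 and -0.823 on the WT arrays, -0.89 and -1.06 on the MI arrays, and 0.35 and 1.25 on the RQ arrays. Both RQ arrays stood above the other 4, and they differed from each other by more than any other pair of replicates among the 15. RQ exceeded WT by 1.71 ± 0.29 on the log2 scale (± is the SE, with 2 arrays in each group; adjusted p = 0.0112), a 3.27-fold change of the ratio. The net Cy3 signal itself was 124 and 110 in WT and 535 and 950 in RQ. The probe was brighter in Cy5 too, at 183 and 158 in WT and 261 and 361 in RQ.

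miR-449, a microRNA of multiciliated cells with the seed of miR-34, lies within the span of Cdc20b (chr13:113037549-113037570, plus strand). Its log2 ratio was -3.39 and -3.06 in WT, -2.31 and -2.56 in MI, and -1.67 and -2.04 in RQ. The groups did not overlap, and MI lay between WT and RQ. The rise was 1.37 ± 0.19 (adjusted p = 0.00808), with a net Cy3 signal of 66.8 and 72.5 in WT against 247 and 207 in RQ, and Cy5 was dimmer on the RQ arrays, at 528 and 537 against 708 and 683. Its neighbour miR-449b, which lies within 10 kilobases on the same strand, was at 0.07 and not called. Other microRNAs of the seed family did not rise with it, as miR-34c fell by 0.63 (at -0.31 and not called with median centring), miR-34b was at -0.49 and miR-34a at 0.26, the last 2 not called.

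miR-155, processed from the transcript Mir155hg (chr16:84714143-84714165, plus strand) and best known from activated immune cells, is the microRNA for which repression by BRCA1 is on record. Its net Cy3 signal was 48.9 and 56.0 on the WT arrays, 74.8 and 68.0 on the MI arrays, and 422 and 334 on the RQ arrays. The WT values were close to those of the negative control spots and not well above background, while both RQ and both MI values were. Its log2 ratio was -1.12 and -1.04 in WT and 0.44 and 0.10 in RQ, a rise of 1.35 ± 0.15 (adjusted p = 0.00808). After normalization the Cy3 signal alone was at least 2.97-fold higher in RQ. That bound takes for WT the higher of the lowest detected signal and the probe's own, leaves Cy5 out and is open to dye bias. The RQ values came from 2 spots on replicate 1 and 1 spot on replicate 2, as the scanner had marked the other spots as outliers, and with those spots kept the rise was 1.76. Cy5 was at 140 and 147 on the RQ arrays against 106 and 105 on the WT arrays.

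miR-151 and miR-361 completed the rises. miR-151 had a net Cy3 signal of 89.1 and 96.8 in WT, 136 and 154 in MI and 260 and 250 in RQ, with no overlap between the groups, and rose by 1.00 ± 0.13 (adjusted p = 0.00808). miR-361, within the span of Chm (chrX:113074867-113074888, minus strand), had 133 and 94.0 in WT and 591 and 343 in RQ and rose by 0.85 ± 0.23 (adjusted p = 0.0472). The RQ arrays were apart for miR-361, with log2 ratios of 0.80 and 0.11, and its rise was called in 1 of the 6 fits that each left out 1 array. miR-361 was also brighter in Cy5, at 182 and 151 in RQ against 107 and 94.2 in WT, and miR-151 was not, at 0.83 times the WT mean.

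**Figure D1:**
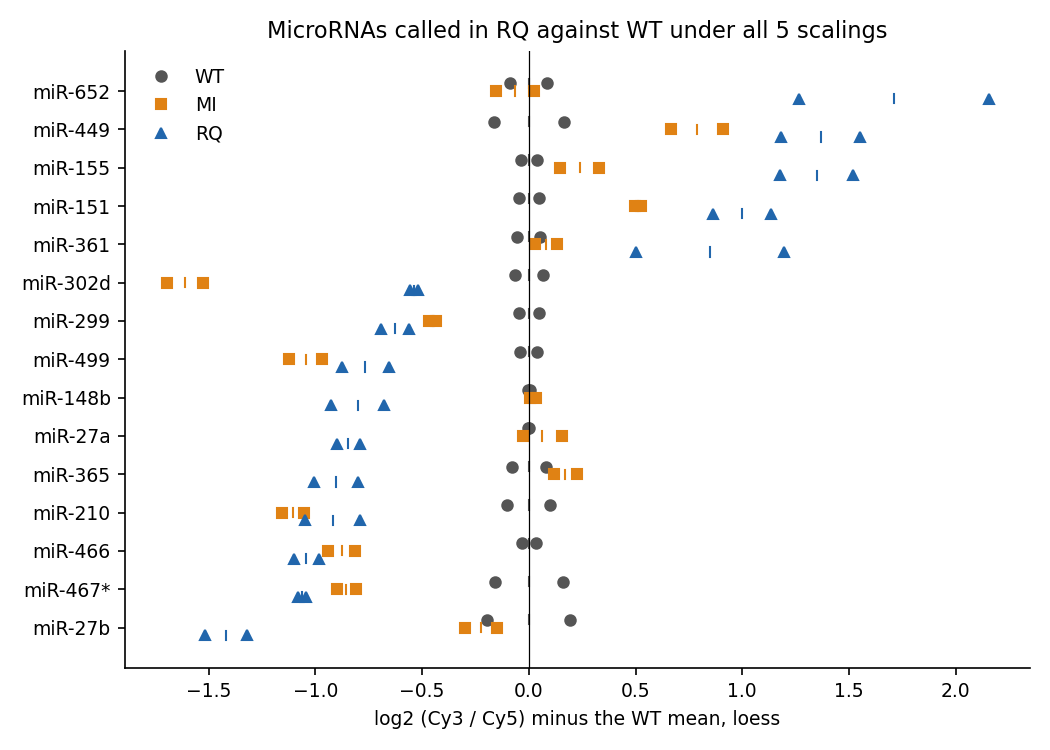
Log2 Cy3 over Cy5 after loess, minus the WT mean, of the 15 microRNAs called in RQ against WT under 5 scalings; each symbol is 1 array (2 WT, 2 MI, 2 RQ) and each short bar a group mean. The RQ arrays of miR-652 and miR-361 lie farther apart than those of the other microRNAs, and MI lies near RQ for miR-466, miR-467*, miR-210 and miR-499 but near WT for miR-27a, miR-365 and miR-148b.

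Among the falls, miR-27b and miR-27a, relatives known from fat cell differentiation and vessel growth, are encoded in different genomic clusters. miR-27b lies within the span of Aopep (chr13:63300760-63300780, plus strand) and miR-27a on another chromosome (chr8:84208727-84208747, plus strand). The net Cy3 signal of miR-27b was 632 and 521 in WT, 464 and 519 in MI and 312 and 323 in RQ. The RQ arrays were the lowest and MI lay between RQ and WT, by a small margin from WT, while in log2 ratio the WT and MI arrays overlapped (-0.92 and -0.53 against -0.88 and -1.03). miR-27b fell by 1.42 ± 0.17 (adjusted p = 0.00808). miR-27a had 303 and 238 in WT, 200 and 238 in MI and 180 and 169 in RQ, and fell by 0.85 ± 0.12 (adjusted p = 0.00808).

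miR-466 and miR-467*, microRNAs of repeated hairpins in an intron of Sfmbt2, fell to similar levels in both mutants. miR-466 had a net Cy3 signal of 471 and 395 in WT, 195 and 186 in MI and 196 and 192 in RQ, a fall of 1.04 ± 0.11 (adjusted p = 0.00808). miR-467* had 310 and 191 in WT, 124 and 105 in MI and 113 and 115 in RQ, a fall of 1.06 ± 0.14 (adjusted p = 0.00808). Both mutants lay below WT with no overlap. The hairpins of this cluster are near-copies of one another, so the signals of the 2 probes may not be independent. With the outlier spots kept, miR-467* fell by 0.73.

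miR-210 is induced by hypoxia through HIF and lowers mitochondrial respiration. Its mature sequence lies at chr7:141221407-141221428 (minus strand). Its net Cy3 signal was 675 and 469 in WT, 194 and 233 in MI and 324 and 302 in RQ, with both mutants below WT. It fell by 0.92 ± 0.14 (adjusted p = 0.00991). miR-499, encoded in the slow myosin gene Myh7b (chr2:155622893-155622913, plus strand) and expressed in heart muscle, had 218 and 154 in WT, 53.5 and 65.7 in MI and 85.7 and 143 in RQ. It fell by 0.77 ± 0.13 (adjusted p = 0.0112), and was not well above background on either MI array. Its RQ signals were also near those of the negative control spots of the RQ arrays, at 93.0 and 102.8. The size of its fall is therefore uncertain.

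miR-365, which shares a transcript with miR-193, and miR-148b, a relative of miR-152 known to target the DNA methyltransferase DNMT1, were lower in RQ than in both WT and MI. miR-365 (1 of its 2 loci is chr11:79726467-79726488, plus strand) had log2 ratios of -2.26 and -2.11 in WT, -1.96 and -2.07 in MI and -2.98 and -3.19 in RQ. It fell by 0.90 ± 0.13 (adjusted p = 0.00839), with miR-193 at -0.36 and not called. miR-148b, within the span of Copz1 (chr15:103285185-103285206, plus strand), had -0.60 and -0.61 in WT, -0.57 and -0.60 in MI and -1.28 and -1.53 in RQ. It fell by 0.80 ± 0.12 (adjusted p = 0.00991).

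The remaining falls were smaller. miR-299, of the imprinted Dlk1-Dio3 region (chr12:109710644-109710665, plus strand), had a net Cy3 signal of 291 and 250 in WT and 179 and 186 in RQ, and fell by 0.63 ± 0.11 (adjusted p = 0.0121). miR-302d, within the span of Larp7 (chr3:127545665-127545687, plus strand), fell by 0.54 ± 0.12 (adjusted p = 0.0256). Its net Cy3 signals overlapped, at 1628 and 1290 in WT and 1290 and 1366 in RQ, and its net Cy5 signal was 18.6 and 13.5 in WT and 19.5 and 31.8 in RQ, so its ratio has a denominator at background. Its call held in 3 of the 6 fits that left out 1 array, and that of miR-299 in 4.

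**Figure D2:**
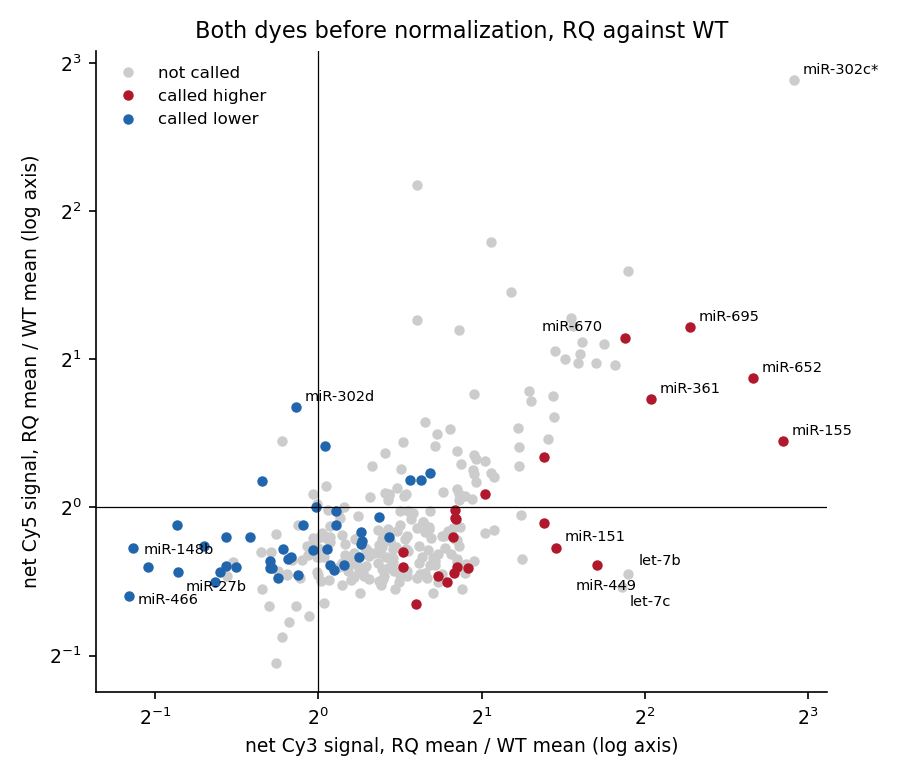
Ratio of the mean net signal of the RQ arrays to that of the WT arrays before normalization, in Cy3 (horizontal) and Cy5 (vertical), on log axes, for 294 microRNAs; colours mark the calls after loess. miR-652, miR-361, miR-155, miR-670 and miR-695 are brighter in both dyes, miR-302c* most of all in Cy5. miR-449, miR-151, let-7b and let-7c are brighter in Cy3 only.

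The raw signals of both dyes were set beside the calls. Of 75 control probes, which name no mouse microRNA, 4 were over 2 times as bright on both RQ arrays as on any WT or MI array in both dyes, and of the 294 tested microRNAs 1 was, miR-302c*. Their part in the changes of the microRNAs brighter in both dyes was not tested. All 22 rises had both RQ arrays above both WT arrays in net Cy3, which was true of 186 of the 294 tested. Of the 22, 5 were above WT in net Cy5 as well and 11 were below it, against 36 and 160 of all 294. The 5 include miR-652, miR-361 and miR-155 of the rises called under every scaling. Among the 41 falls, 15 had both RQ arrays below both WT arrays in net Cy3, against 20 of all 294. These 15 hold 9 of the 10 falls called under every scaling, with miR-302d the exception. As those 10 were chosen in part by a fall with Cy3 alone, their low Cy3 signal is no separate support. The 6 others of the 15 were miR-26a, miR-103, miR-107, miR-125a, miR-125b and miR-29a. A further 8 falls were above WT in net Cy3 on both RQ arrays: miR-130a, miR-298, miR-1, let-7a, miR-130b, miR-320, miR-23b and miR-500.

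The rest of the calls went with the brightness of the probe. The 41 falls had a median log2 intensity of 10.3 and the 22 rises one of 8.07. Split into 4 groups by intensity, the brightest group (74 microRNAs) had opposite calls under different scalings, as loess called 32 of it lower and 0 higher, at a median change of -0.62, and median centring called 2 lower and 17 higher, at a median of 0.20. In the group below it, loess called 11 higher and 2 lower. Over all microRNAs the calls numbered 22 higher and 41 lower with loess, 10 and 33 with loess on bright spots, 47 and 20 with median centring, 18 and 31 with Cy3 alone and 19 and 43 with the processed signals, so the share of rises was 34.9%, 23.3%, 70.1%, 36.7% and 30.6%. The median of all 294 changes was 0.03, -0.12, 0.10, -0.06 and -0.26 in that order.

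**Figure D3:**
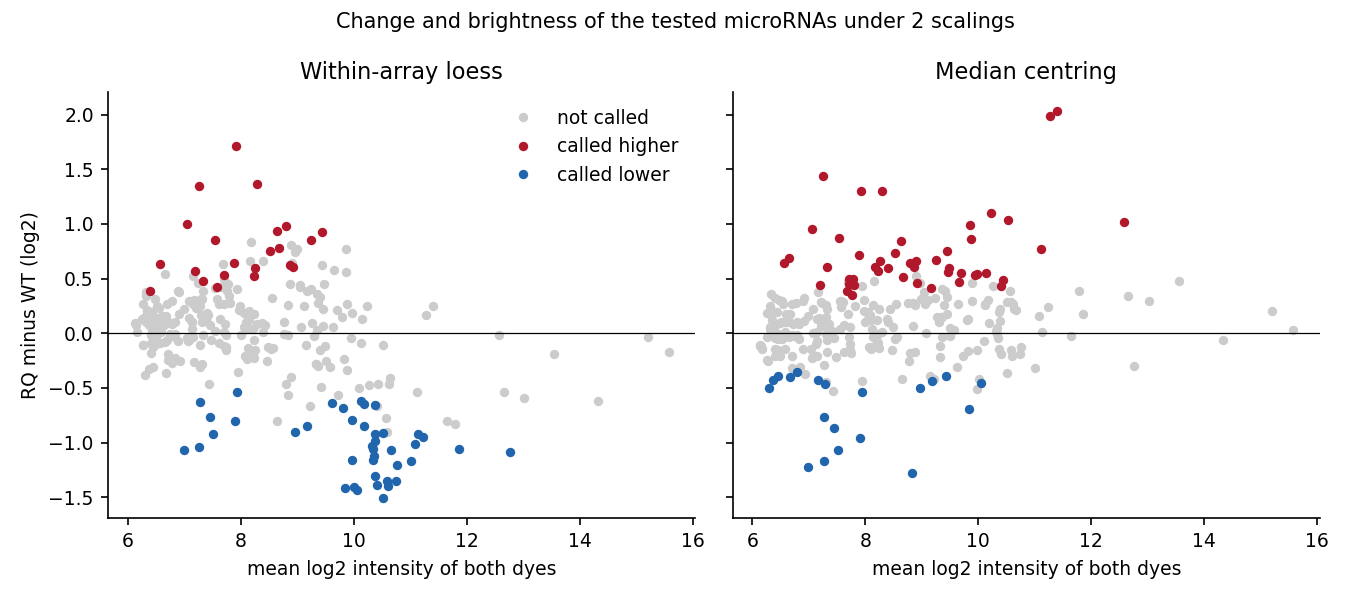
Change in RQ minus WT (log2) against the mean log2 intensity of both dyes for 294 microRNAs, after loess within each array (left) and after median centring (right); colours mark the calls. With loess the bright probes hold 32 of the 41 falls, and with median centring they hold 17 of the 47 rises.

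let-7b and let-7c, chosen here after their values were seen, are the clearest case of bright probes whose change depended on the scaling. let-7 microRNAs restrain growth and LIN28-linked stem cell programmes, and rise with differentiation. The net Cy3 signal of let-7b was 537 and 518 in WT, 603 and 904 in MI and 2037 and 1890 in RQ. That of let-7c was 498 and 500 in WT, 514 and 543 in MI and 1589 and 2029 in RQ. Both RQ arrays were thus over all 4 other arrays, while their net Cy5 signals were the lowest, at 5254 and 5538 for let-7b against 7564 and 7142 in WT. The change of let-7b was 1.99 with median centring (adjusted p = 0.00041), 1.40 with Cy3 alone (adjusted p = 0.0113) and 1.20 with the processed signals (adjusted p = 0.0111), all called, but 0.17 with loess (adjusted p = 0.739) and 0.10 with loess on bright spots (adjusted p = 0.874). For let-7c the same scalings gave 2.03, 1.35, 1.29, 0.25 and 0.23.

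let-7e moved with the scaling in the same direction but by less, and was called with median centring alone. Its net Cy3 signal was 276 and 273 in WT and 875 and 431 in RQ, and its change was 1.104 with median centring (adjusted p = 0.0363), 0.73 with Cy3 alone, 0.37 with the processed signals, 0.25 with loess and 0.43 with loess on bright spots. let-7a, let-7f and let-7g, members with the same seed, were called lower with loess, at -1.02, -0.92 and -0.85, and none of the 3 was called with median centring, where they were at 0.16, 0.01 and 0.09. let-7d was at -0.90, miR-98 at 0.44 and let-7i at 0.36, not called. Of the 9 tested members 0 rose and 3 fell with loess, and 0 were called with loess on bright spots (limma), where 5 had an unadjusted p under 0.05. With median centring 3 rose and 0 fell, with Cy3 alone 2 rose and 1 fell, and with the processed signals 2 rose and 0 fell. The median change was 0.17 with loess, against 0.03 over all microRNAs, and 0.29 with median centring.

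**Figure D4:**
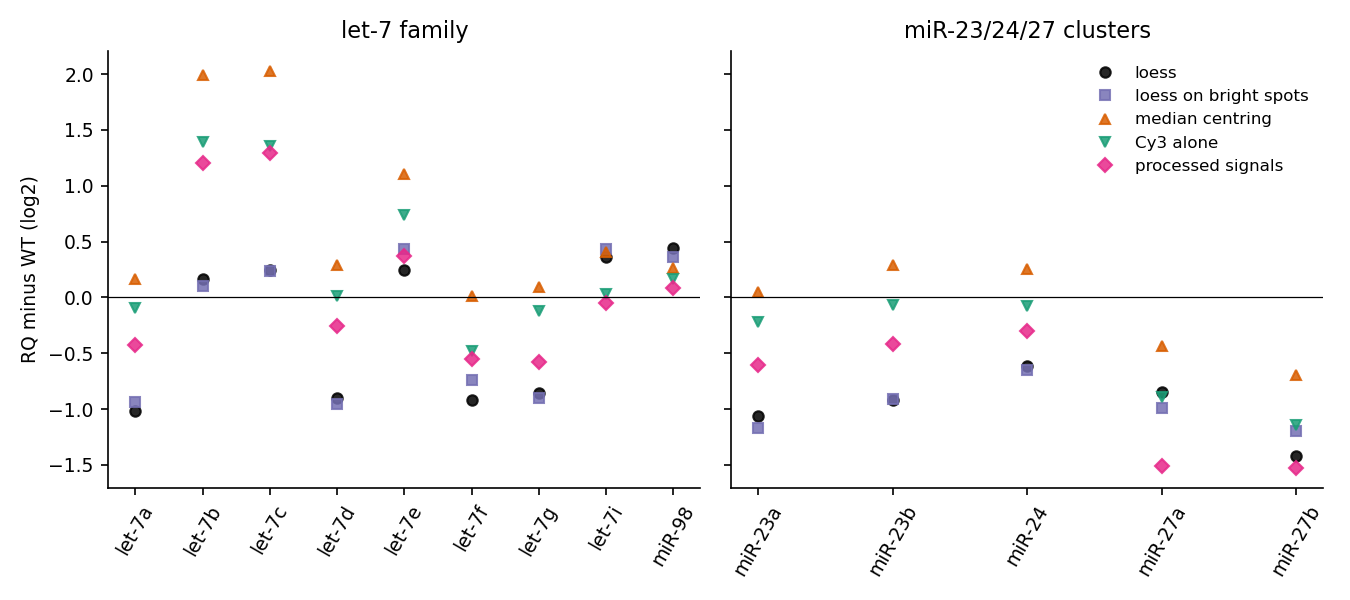
Change in RQ minus WT (log2) of the let-7 family (left) and of the miR-23/24/27 clusters (right) under 5 scalings, 1 symbol per scaling. let-7b and let-7c lie between 0.10 and 2.03 depending on the scaling, while miR-27a and miR-27b are below 0 under all 5.

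Among the microRNAs of stem cells, the miR-290 cluster had 2 calls. miR-294, the most abundant member here and a promoter of the fast cell cycle of stem cells, had a net Cy3 signal of 32466 and 18568 in WT and 26891 and 25594 in RQ. The groups overlapped in Cy3, and the fall of 1.51 with loess was one of 0.37 with median centring and 0.09 with Cy3 alone, not called in either. miR-295 fell by 1.16, was called with 1 of the 4 other scalings and overlapped in Cy3 too. The other 5 members were not called, with miR-293 at -0.56 and miR-290 at -0.23. The summed net Cy3 signal of the 7 members was 86224 and 50566 in WT and 72210 and 68951 in RQ, so RQ lay within the range of WT. The cluster of miR-302 with miR-367 had 1 fall among 4 tested members, that of miR-302d, with miR-302 at -0.46 and miR-302c* at 0.54 not called. miR-302c* was brighter in both dyes, at 378 and 338 in Cy3 against 54.3 and 40.9 in WT, and at 84.8 and 95.5 in Cy5 against 14.6 and 9.83.

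Families linked to proliferation differed between scalings. In the miR-17-92 clusters, which drive the cell cycle in embryonic cells and tumours, miR-19a rose by 0.85 and miR-17-5p fell by 0.65, and median centring put miR-17-5p at 0.31, not called. Both come from one transcript, in which 6 tested microRNAs had 1 rise and 1 fall. miR-19b was at -0.67, miR-106a at -0.47 and miR-363 at 0.46, not called. In the miR-15, miR-16 and miR-103 relatives 4 of 8 fell and 1 rose, with a median of -0.78, where 13.9% of all microRNAs fell and 7.48% rose. The relatives were not tested as a group. The 4 falls were miR-103 (-1.40), miR-107 (-1.35), miR-16 (-1.17) and miR-15b (-1.16), against miR-497 (0.42, at 0.02 with Cy3 alone). miR-103 and miR-107, which sit in introns of the pantothenate kinase genes Pank2 and Pank1, differ at 1 of 23 bases and may share signal. With median centring these 4 were at -0.21, -0.16, -0.32 and -0.00, and none was called.

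With loess all 5 listed members of the miR-23/24/27 clusters fell, where 13.9% of all microRNAs fell, at a median of -0.92. miR-189, the other arm of a miR-24 hairpin beside miR-27b, was not on the list. It was at -0.36 and not called (adjusted p = 0.0900, limma). The listed members parted by scaling. miR-23a (-1.06), miR-23b (-0.92) and miR-24 (-0.62) were at 0.05, 0.29 and 0.25 with median centring and were not called with it, whereas miR-27a and miR-27b were called lower at -0.44 and -0.69. The change of miR-27b was below those of miR-23a, miR-23b and miR-24 under all 5 scalings, and that of miR-27a under 3; these differences between members were not tested.

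The miR-181 family, which shares one seed, had 2 rises and 0 falls among 3 tested, where 7.48% of all microRNAs rose and 13.9% fell. miR-181a and miR-181b, which are known from lymphocyte and neural development, had log2 ratios in WT of -3.84 and -3.62, and of -3.19 and -3.16. In RQ these were -3.14 and -3.06, and -2.52 and -2.63. No RQ value overlapped with WT. They rose by 0.62 ± 0.12 (adjusted p = 0.0184) and 0.60 ± 0.13 (adjusted p = 0.0248), and miR-181c was at 0.38 and not called. Of the other scalings, 3 called miR-181b and 1 called miR-181a. The median of the 3 was 0.60, against 0.03 over all microRNAs. In MI the family stood higher still, with a median log2 ratio over the 3 of -1.98 and -2.24 on the MI arrays. The median of MI minus WT was 1.06, against 0.11 over all microRNAs, and was not tested.

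Other families moved down in part. In the miR-26 family miR-26a fell by 1.41 and miR-26b was at 0.23, not called with loess but called higher with median centring. miR-26a, which targets the histone methyltransferase EZH2, was called under 3 of the 4 other scalings, and at -0.42 with median centring it was not (adjusted p = 0.127). In the miR-29 family, which targets collagens, miR-29a fell by 1.21 and miR-29b was at -0.81. In the miR-125 group miR-125b fell by 1.39 and miR-125a by 1.31, whereas miR-99a of the neighbouring family rose by 0.53 (at -0.05 with Cy3 alone). With median centring miR-29a, miR-125a and miR-125b lay between -0.12 and -0.19. In the miR-130 and miR-148 families 3 of 7 fell, miR-148b, miR-130a (-1.07) and miR-130b (-0.99), with miR-148a at -0.80 not called. Over all microRNAs 13.9% fell, and these families were not tested as groups. The sign of miR-130a and miR-130b turned with median centring, to 0.21 and 0.20. miR-30c was the 1 call of 5 tested miR-30 members, at -0.92, and at 0.23 with median centring.

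The tissue marker lists held calls at shares to either side of the 21.4% over all microRNAs, which is no result about these markers as a group. Of 7 epithelial markers miR-200a fell and miR-205 rose. miR-200a, which restrains ZEB factors, fell by 1.44 ± 0.18 (adjusted p = 0.00808). Its net Cy3 signals overlapped, at 1446 and 878 in WT and 838 and 905 in RQ, and it was called under every scaling but Cy3 alone (adjusted p = 0.0648). Its neighbour miR-200b was at -0.23 and miR-200c at -0.12. miR-205 rose by 0.61 and was called under 1 of the 4 other scalings. The summed net Cy3 signal of the 7 markers was 2754 and 1859 in WT and 2188 and 2218 in RQ.

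The mesenchymal list had 3 falls among 11 tested markers, at -1.35 for miR-21, -0.68 for miR-145 and -1.21 for miR-29a, with miR-22 at -0.66 and miR-143 at 0.33 not called, and none of the 3 was called with median centring. Of 6 muscle and heart markers miR-499 fell and miR-1 was called lower at -1.03 although its net Cy3 signal was higher in RQ, at 230 and 232 against 201 and 184. miR-206, a microRNA of skeletal muscle, was at 0.77 and not called. Of 14 neural markers miR-7 rose by 0.94 ± 0.14 (adjusted p = 0.00839; 2 of the 4 other scalings) and miR-153 was called at 0.38, but the Cy3 signal of miR-153 was at background in RQ and WT alike, so it has no fold. miR-124a was at -0.54, miR-132 at 0.39 and miR-128b at 0.39, not called. With loess all 5 endoderm and all 5 Hox members tested were without a call, and so was the 1 endothelial member. In limma 1 endoderm and 1 Hox member had an unadjusted p under 0.05, and 0 endothelial. Median centring called 1 endoderm and 1 Hox member higher, and Cy3 alone called 1 endoderm member higher.

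Of 8 blood markers miR-155 and miR-150 rose, the latter by 0.76, and miR-146, like miR-155 a target of NF-kB, was at 0.42 and not called. miR-451, which marks red cells, was called lower at -1.09, but its Cy5 signal was saturated on all 6 arrays and the ratio is not read as a change. The summed net Cy3 signal of the 8 blood markers was 1160 and 1183 in WT and 1791 and 1668 in RQ. This sum includes miR-155 itself, so it does not show a rise of the other markers. Over all tested microRNAs the net Cy3 signal of RQ was at a median of 1.35 times that of WT. The part of blood cells in the rise of miR-155 was not tested. Of 7 NF-kB responsive microRNAs 1 rose, miR-155, and 2 fell, miR-21 and miR-125b, with miR-132 not called. Of 9 p53-linked microRNAs 3 fell, miR-107, miR-145 and miR-34c, and miR-194 was at 0.39 and not called. Over all 294 microRNAs 7.48% rose and 13.9% fell, and neither the NF-kB nor the p53 list was tested as a group.

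The imprinted and intronic clusters follow, with counts to be read beside the 21.4% called over all microRNAs, and none was tested as a group. In the Dlk1-Dio3 region miR-299 was the 1 call of 41 tested with loess, at a median of -0.08, with miR-134 at 0.84, miR-329 at -0.47 and miR-665 at 0.45 not called. That count depended on the scaling. Loess on bright spots called 3 of the 41 lower, Cy3 alone 4 and the processed signals 5, with 0 higher in each. Median centring called 1 lower and 2 higher. Of 7 Sfmbt2 members miR-466 and miR-467* fell, and the median was -0.15. Of 5 Clcn5 members miR-500 was called lower, at -0.65, and was higher in RQ in net Cy3, at 3074 and 3135 against 2597 and 1602. The other 4 were not called with loess, with miR-188 at 0.58, miR-532 at -0.38, miR-501 at -0.33 and miR-362 at -0.31, and 4 of the 5 members had an unadjusted p under 0.05. Each of the 4 other scalings called 3 of the 5 lower. miR-532 and miR-362 were called lower under all 4, and miR-501 under 3, at -0.50, -0.39 and -0.43 with median centring. Their net Cy3 signals were low on every array, from 59.0 to 75.0 in RQ against 52.0 to 81.0 in WT. miR-188 was called higher with median centring, at 0.47. The 3 members of the miR-183 cluster had 0 calls in limma, and 0 had an unadjusted p under 0.05.

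**Figure D5:**
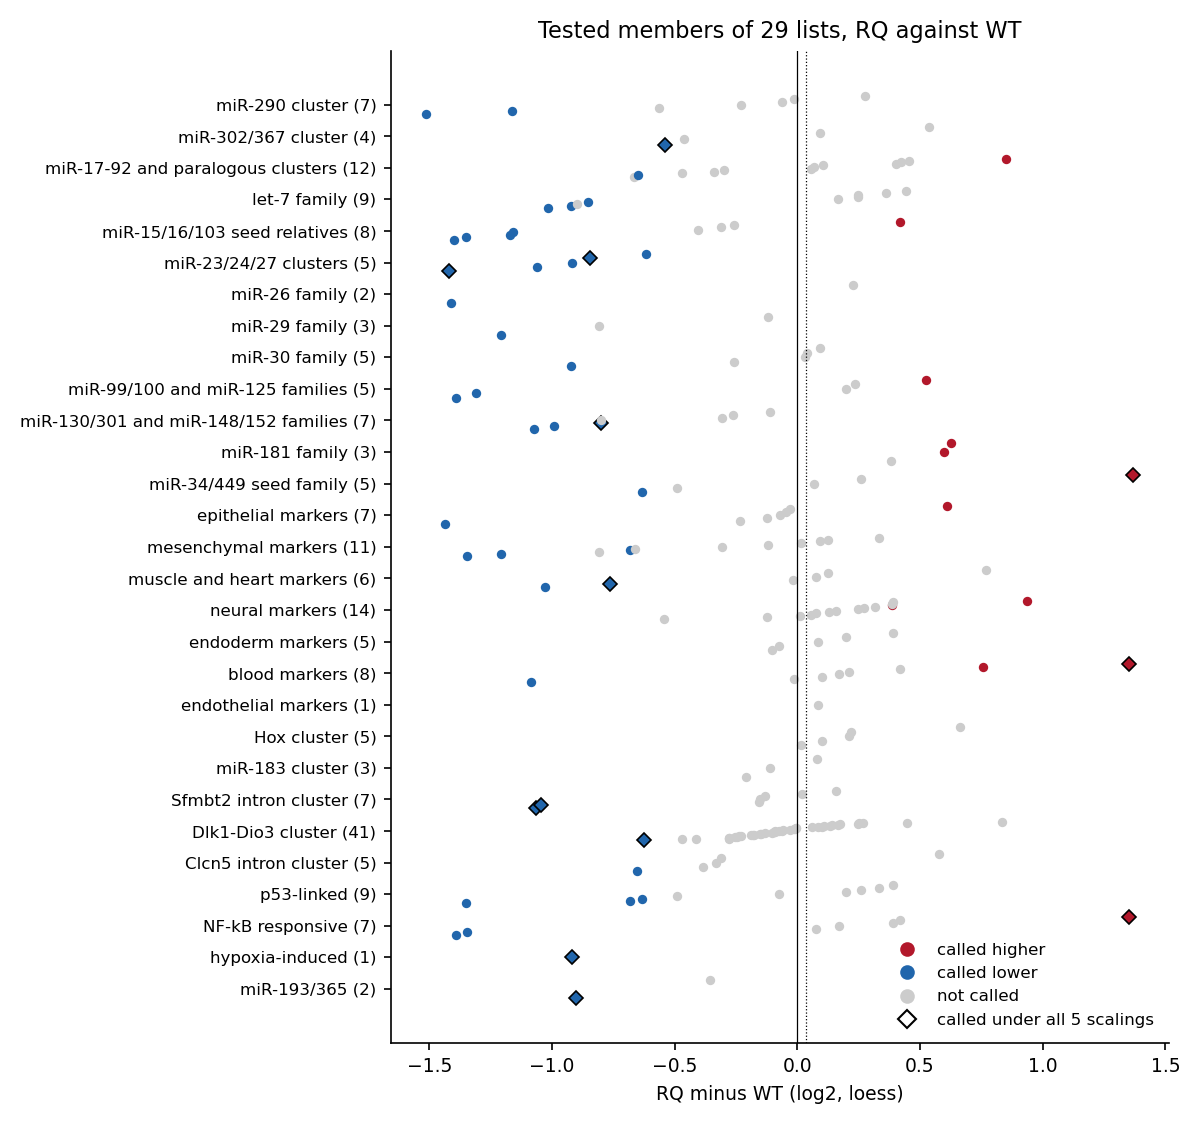
Change in RQ minus WT (log2, loess) of every tested member of 29 lists of microRNAs, with the number tested in brackets; colours mark calls, diamonds the microRNAs called under all 5 scalings, and the dotted line the median of all 294. Calls are spread over many lists, and the miR-23/24/27 clusters are the list of over 1 member in which all listed members were called. That list leaves out miR-189, an arm of a miR-24 hairpin, which was not called.

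The remaining large rises belonged to microRNAs outside these lists. miR-672, an X-linked microRNA, rose by 0.98 and miR-674 by 0.93. Their net Cy3 signals were 591 and 520 in WT and 1280 and 975 in RQ for miR-672, and 722 and 590 in WT and 2317 and 1109 in RQ for miR-674. Both were called under 2 of the 4 other scalings. Smaller rises were miR-801 (0.78), miR-335 (0.65), an intronic microRNA of the imprinted gene Mest, miR-695 (0.64), miR-702 (0.57), miR-491 (0.53) and miR-670 (0.48). Of these miR-491 and miR-670 were called under 3 of the 4 other scalings.

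Remaining falls with loess were mostly of bright probes. miR-101a fell by 1.13 and miR-101b by 0.80, both under 1 other scaling, and miR-101 targets EZH2 as miR-26a does. miR-298 (-1.06) and miR-320 (-0.95) were at 0.18 and 0.24 with median centring.

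Detection in Cy3 changed for 15 microRNAs. In 4 of them both RQ arrays and 0 WT arrays were well above background: miR-155, miR-695, miR-190 and miR-804. miR-695 had a Cy3 signal at least 1.89-fold higher in RQ. Its net Cy5 signal was higher too, at 2.32 times the WT mean. In 11, none called with loess, both WT arrays and 0 RQ arrays were: miR-133b, miR-146b, miR-152, miR-189, miR-212, miR-362, miR-470, miR-486, miR-501, miR-532 and miR-673. Their fitted changes went both ways, from -0.38 for miR-532 to 0.50 for miR-486, so the 11 as a set are not read as lost in RQ. Negative control spots were brighter in Cy3 on the RQ arrays (93.0 and 102.8) than on the WT arrays (59.4 and 43.8). The part of this in the detection counts was not tested. miR-362, miR-501 and miR-532 are 3 of the 5 Clcn5 members. Of these, miR-362 and miR-532 were called lower under all 4 other scalings and miR-501 under 3, as given above. miR-152, a relative of miR-148b with its seed, had the largest bound of the 11, at least 1.60-fold lower in RQ, and a fitted change of -0.31 (adjusted p = 0.144).

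RQ and MI differed in their own right for part of the 15. In RQ minus MI, 32 of 294 microRNAs (10.9%) were called. Among the 15 microRNAs above, 7 were called: miR-652 (1.77, adjusted p = 0.0237) and miR-155 (1.11, adjusted p = 0.0157) were higher in RQ, and so was miR-302d (1.08, adjusted p = 0.0146), which was lowest in MI. Lower in RQ than in MI were miR-27b (-1.19, adjusted p = 0.0157), miR-365 (-1.07, adjusted p = 0.0146), miR-27a (-0.91, adjusted p = 0.0146) and miR-148b (-0.82, adjusted p = 0.0207). Not called against MI were miR-449 (0.58), miR-151 (0.49), miR-361 (0.77), miR-466 (-0.17), miR-467* (-0.21), miR-210 (0.19), miR-499 (0.28) and miR-299 (-0.18), which does not show that the mutants are alike for these. Both comparisons share the RQ arrays, which lay in slide columns 3 and 4, apart from the WT and MI arrays in columns 1 and 2. The 32 limma calls fell to 0 without MI replicate 1, MI replicate 2 or RQ replicate 2, where 60, 47 and 58 microRNAs had an unadjusted p under 0.05, and to 1 without RQ replicate 1, so the calls against MI need all 4 arrays.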

How the data were processed

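Total RNA of 6 samples received dye at the 3′ end, per the labels' protocols, and was hybridised to 2-colour Agilent microRNA arrays. The deposited files give a mean intensity and a median local background intensity per spot and dye, per the file headers, from Agilent Feature Extraction 9.5.1.1. They also hold a log10 ratio per spot, which the authors deposited as a value table too, with the opposite sign (Cy3 over Cy5). Spots were corrected with normexp (offset 50), normalised by loess within each array (control and outlier spots at weight 0) and averaged per probe as log2 Cy3 over Cy5, with outlier spots left out, in limma 3.58.1 under R 4.3.3. Control spots were left out. Tested probes had more than a share of 0.5 of their spots well above background, in either dye, on 2 or more arrays. The 3 groups were fitted together by lmFit and eBayes, where 3 degrees of freedom were residual and 2.99 prior, with Benjamini-Hochberg adjustment over 294 microRNAs. The number of arrays limits the precision. The fit was tested on simulated data.

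Probe names follow the array's design. Of 334 probes, 278 matched a RefSeq mature sequence (167 whole, the rest over at least 17 bases with a matching name), and gene spans are those of GRCm38.p6. The microRNAs named are those called under all 5 scalings, the 12 largest called rises and falls, miR-155, and of each of 29 lists with a call its called members and up to 3 others with the largest changes. let-7b, let-7c, let-7e, miR-362, neighbours or seed relatives of a named microRNA, the microRNAs of the count by detection and the other calls were named after their values were seen. The microRNAs and lists were chosen with earlier results of these data known. Alternatives were 4 other scalings, Aquantile normalization, an offset of 16, no background correction, other filters, outlier spots kept, medians over spots, fewer arrays, a replicate block and the deposited value table.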

Additional observations from a re-analysis of the deposited data

Results flagged for a closer look

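Control probes outside the comparison were brighter on the RQ arrays. Of 75 control probes, 4 had a net signal over 2 times that of any WT or MI array on both RQ arrays and in both dyes. ETG10_13482 was well above background in Cy3 on both RQ arrays and on none of the other 4. Its mean net Cy3 signal was 843.9 in RQ, at 710.3 and 977.5, against 51.6 and 42.5 in WT and 55.5 and 71.8 in MI. Its net Cy5 signal was 252 and 332 in RQ against 33.9 and 25.7 in WT. The other 3 were well above background on all 6 arrays. (+)E1A_r60_3 had a mean net Cy3 signal of 446.7 in RQ, at 461 and 432 against 95.8 and 87.5 in WT, and a net Cy5 signal of 115 and 124 against 22.2 and 11.2. (+)E1A_r60_a20 had a mean of 552.8 in RQ, at 655 and 450.5 against 113 and 117 in WT, and 155 and 131 against 37.9 and 23.7 in Cy5. DCP_20_0 had a mean of 513.8 in RQ, at 635 and 393 against 99.5 and 114 in WT, and 150.5 and 102.5 against 32.7 and 21.5 in Cy5.

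A further 4 control probes were over 2 times as bright in Cy3 on 1 RQ array as on any other array, and 0 on 1 WT or MI array. On RQ replicate 2, LMTcontrol_AgilentLinker was at 6198 and (+)eQC-41 at 3827, against 259 and 210.3 on RQ replicate 1 and at most 215 and 158 on the other 4 arrays. On RQ replicate 1, ETG10_195139 was at 2375 and RC12 at 178, against 865 and 60.6 on RQ replicate 2. The factor of 2 was chosen after the values were seen. The part of these signals in the changes of the microRNAs that were brighter in both dyes (miR-652, miR-361, miR-670, miR-695, miR-155 and miR-302c*) was not tested. With 2 arrays per group no single array can be singled out by a test. Only the RQ arrays lay in slide columns 3 and 4, so slide column and R1699Q cannot be told apart here either.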

How the results depend on the processing

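The count of 63 calls in RQ minus WT lay between 43 and 81 under the alternatives other than leaving out an array, and between 5 and 60 with 1 array left out. The 22 rises became 47 with median centring, 10 with loess on bright spots and 12 with only the RQ and WT arrays, and 2 to 23 with 1 array left out. The 41 falls became 20 with median centring, and 3 to 45 with 1 array left out. The 32 calls in RQ minus MI became 10 with loess on bright spots, 7 without background correction and 14 with outlier spots kept, and 0 to 48 with 1 array left out. With the replicate number as a block, the calls in RQ minus WT numbered 59, of which 16 were rises and 43 falls, and those in RQ minus MI 38; deviations of equally numbered arrays correlated at 0.12 for RQ and WT, with 2 pairs, so the numbers are not taken to pair the samples. Signs turned with median centring for let-7a (0.16), let-7f (0.015), let-7g (0.092), miR-1 (0.023), miR-130a (0.21), miR-130b (0.20), miR-17-5p (0.31), miR-23a (0.047), miR-23b (0.29), miR-24 (0.25), miR-298 (0.18), miR-30c (0.23), miR-320 (0.24) and miR-500 (0.11), and among microRNAs not called for miR-19b (0.43), miR-106a (0.43), let-7d (0.29), miR-195 (0.026), miR-124a (0.77) and miR-290 (0.13). They turned with Cy3 alone for miR-1 (0.071), miR-99a (-0.054), miR-293 (0.00), let-7d (0.012), miR-124a (0.29), miR-132 (-0.040), miR-128b (-0.029), miR-146 (-0.038) and miR-34a (-0.074), with the processed signals for miR-302c* (-0.30), let-7i (-0.052), miR-143 (-0.17), miR-124a (0.14), miR-128b (-0.22), miR-188 (-0.22) and miR-34a (-0.28), with the deposited value table for the same 7 (-0.30, -0.061, -0.17, 0.14, -0.23, -0.22 and -0.28), and with loess on bright spots for miR-449b (-0.11). With 1 array left out let-7b lay between -0.16 and 0.49, let-7e between -0.12 and 0.62 and miR-143 between -0.020 and 0.68. The cause was not tested. The other named microRNAs kept their sign under the alternatives run. Microarray signals near background limit the ratios of miR-155, miR-302d and miR-695, among others. The net Cy3 signals of miR-449 in WT, and of miR-499 and miR-467* in RQ, were also near those of the negative control spots.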
